A study of Mus musculus with 6 samples.

Results

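Aminoacyl-tRNA synthetases attach each amino acid to its matching tRNA, and their transcripts were examined in IFN-γ-treated Th9 cells with and without the transcription factor IRF1. The members were the 20 cytosolic and 16 mitochondrial synthetase genes of a list written by name, and all 36 were found by symbol among the 41388 genes of the deposited table. RNA-Seq of 3 WT and 3 Irf1-/- cultures on the C57BL/6 background was compared, each culture kept for 2 days with IL-2, IL-4, TGF-β and IFN-γ. The Irf1-/- mice carry the knockout in all their cells and not in T cells alone, so that differences arising before the culture are part of the comparison. T cells came from spleen and lymph nodes by negative magnetic selection, and the study's methods describe them as naive CD4+ cells of adult mice, primed through CD3 and CD28, with rat IFN-γ added while mouse IFN-γ was blocked by an antibody. The study describes the 3 samples of a genotype as biologically independent, and the labels do not name the animals behind them.

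Cytosolic synthetases charge the tRNAs that supply the ribosomes of the cytoplasm, and a separate nuclear-encoded set, marked by a 2 in the symbol, serves the ribosomes inside mitochondria. Part of the cytosolic enzymes are held together in a large multi-synthetase complex by scaffold proteins. Shortage of charged tRNA or stress in the endoplasmic reticulum leads to phosphorylation of eIF2α and to translation of ATF4, which activates genes of amino acid synthesis and uptake and many cytosolic synthetase genes. Wars, the tryptophanyl-tRNA synthetase, is in addition a known IFN-γ-inducible gene, and IFN-γ also induces enzymes that degrade tryptophan in other cell types.

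The deposited values are normalized counts, in which the reads on a gene were divided by a size factor of the library. Libraries held 5639788 to 13348230 reads on genes, with replicate 3 of each genotype the largest, and no member had fewer than 71 reads in any library. Irf1 itself had 2968, 2907 and 2659.8 normalized counts in WT and 1780.2, 1729 and 1476 in Irf1-/- cultures, a log2 fold change of -0.78 (adjusted p = 7.32e-05, limma). Reads on Irf1 thus remained in every Irf1-/- library, against what a complete loss of the transcript would give, and a count per gene does not show which part of the gene they cover. The Y-linked gene Ddx3y reached 849 and 939 normalized counts in WT replicates 1 and 2, but at most 4.16 in the other 4 libraries, which instead held Xist. WT replicates 1 and 2 thus came from cells with a Y chromosome, although the study's methods describe the mice as sex-matched. Summed markers of CD4 T cells ranged from 11841 to 12441 in WT and from 11291 to 11568 in Irf1-/- cultures. Summed myeloid markers ranged from 22.5 to 151.5 in WT and from 19.8 to 1016.5 in Irf1-/- cultures, with the highest value in Irf1-/- replicate 2. B cell markers summed to at most 37.4 and NK cell markers to at most 8.36 in any library, with Ms4a1, Pax5 and Ncr1 at or under 3 reads.

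Many cytosolic synthetase transcripts were more abundant in Irf1-/- than in WT Th9 cells, while Wars had about the same level in both and a single mitochondrial gene was higher. Of the 20 cytosolic genes, 10 were higher, 1 was lower and 9 did not pass an adjusted p of 0.05 in limma's test over 11379 genes. The 10 became 5 without WT replicate 2 and 3 without the mean-variance trend, where Aars, Gars, Lars, Qars, Tars, Vars and Yars had adjusted p between 0.0511 and 0.119. Of the 16 mitochondrial genes, 1 was higher and 0 were lower in limma, where 1 was lower at an unadjusted p below 0.05, and edgeR and DESeq2 called 0 lower. Among all genes tested, 11.4% were called higher and 12.4% lower. The median log2 fold change was 0.22 over the cytosolic genes and -0.02 over the mitochondrial genes, beside -0.004 over all genes tested. The cytosolic median was smaller, 0.09, with the Y-linked level of the libraries as a covariate, and 0.06 with WT replicate 3 as the single WT library. Values of WT and Irf1-/- cultures did not overlap for 14 cytosolic and 2 mitochondrial genes, and this was so for 40.5% of all genes tested. In bulk RNA, a change in the number of cells of a type and a change in RNA per cell cannot be told apart.

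**Figure D1:**
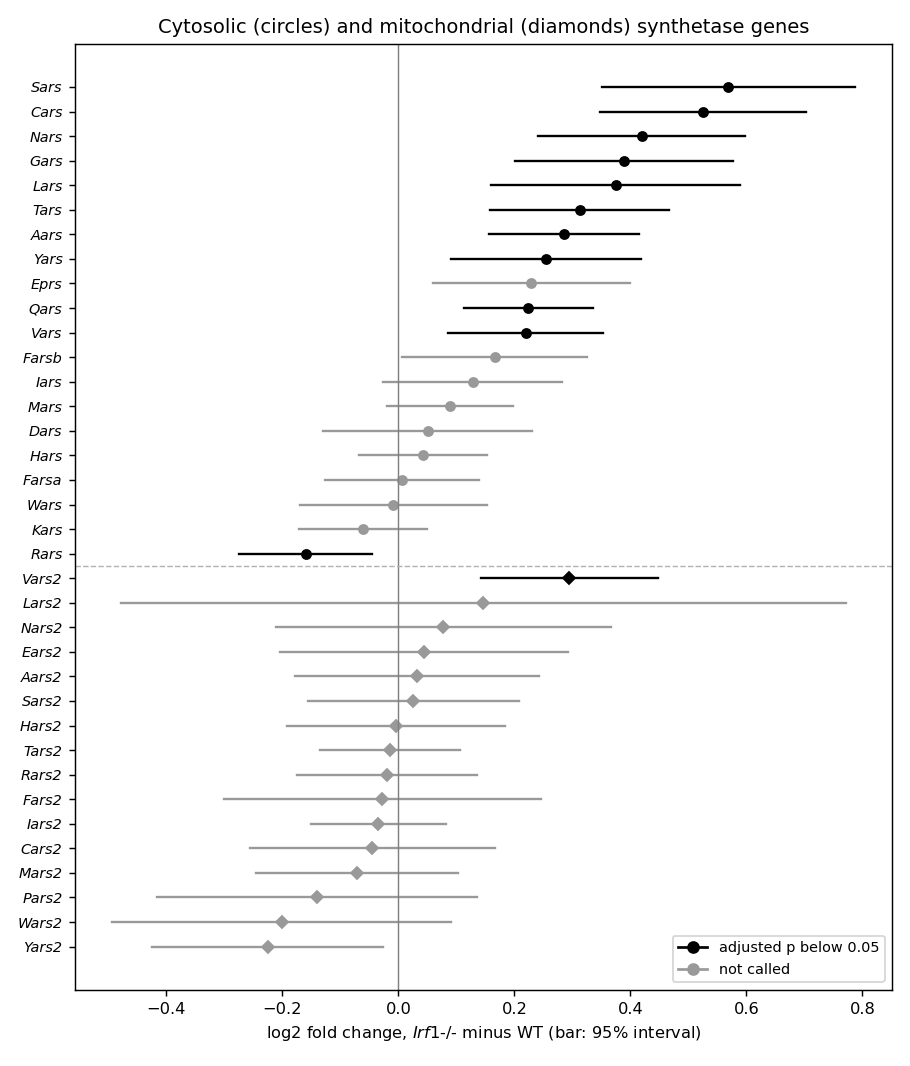
Log2 fold change of each synthetase gene from WT to Irf1-/- Th9 cells (x axis) with its 95% interval from limma, with 20 cytosolic genes as circles above the dashed line and 16 mitochondrial genes as diamonds below it. Black symbols passed an adjusted p of 0.05: 10 cytosolic genes and Vars2 lie to the right of 0, Rars lies to the left, and Wars sits at -0.01.

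Wars (ENSMUSG00000021266, GRCm38 chromosome 12, 108860030 to 108894174, - strand) was among the 9 cytosolic genes that did not pass, beside Farsa, Hars, Dars and Kars with differences also close to 0. WT cultures had 1444, 1376.5 and 1653.5 normalized counts, and Irf1-/- cultures had 1482, 1408 and 1548. The genotypes overlapped, with the lowest and the highest value both in WT. With 3 cultures a genotype, WT averaged 1491 ± 144.5 (SD) and Irf1-/- 1479 ± 70.1 (SD), which gave a log2 fold change of -0.01 (95% interval -0.17 to 0.15, adjusted p = 0.951, limma). The interval leaves room for a decrease or an increase of that size. Over 19 alternative settings the log2 fold change of Wars ranged from -0.16 to 0.07 and the adjusted p from 0.153 to 0.987. The lowest values were -0.16 with WT replicate 3 as the single WT library and -0.15 with the Y-linked level of the libraries as a covariate (adjusted p 0.321 and 0.153, limma).

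Set against the mean of the other 19 cytosolic genes, Wars was lower in every Irf1-/- library than in any WT library, although by rank it was 19th or 20th of the 20 in both genotypes. The log2 level of Wars minus the mean log2 level of the other 19 was -0.88, -0.94 and -0.88 in the WT libraries, against -1.12, -1.17 and -1.08 in the Irf1-/- libraries. These differences between genes are not per length, but gene length is the same in every library. Wars itself had a log2 fold change of -0.01, and the 19 genes it was set against had a median of 0.22.

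**Figure D2:**
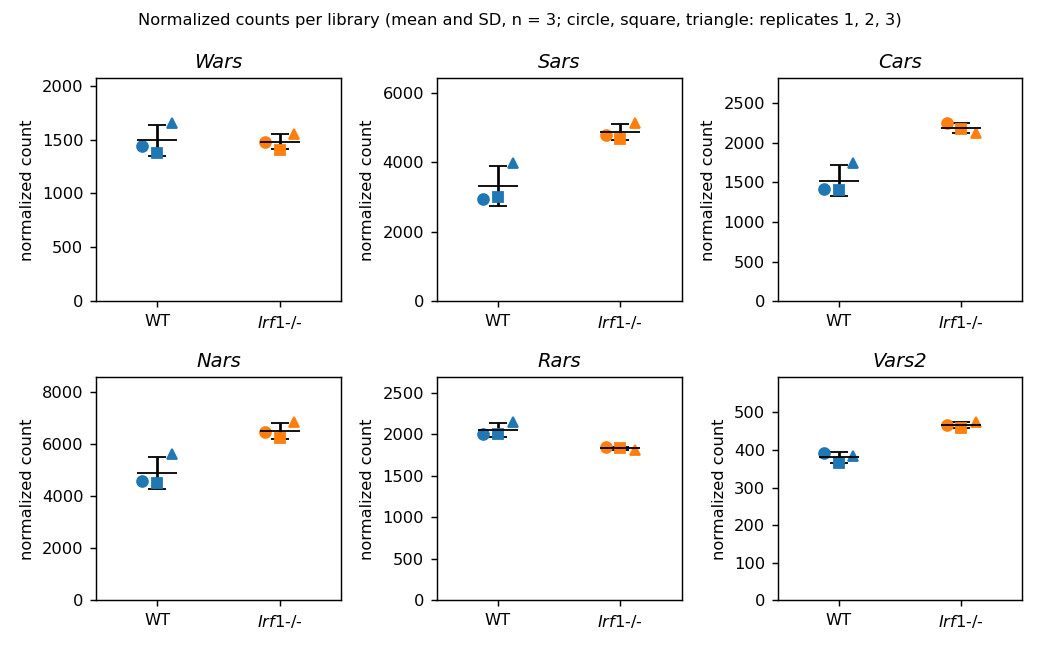
Normalized counts (y axis, starting at 0) of Wars, Sars, Cars, Nars, Rars and Vars2 in each of the 3 WT and 3 Irf1-/- libraries, with symbols for the replicate number, a line for the mean and bars for the SD (n = 3). Wars overlaps between the genotypes, Sars, Cars, Nars and Vars2 are higher in every Irf1-/- library, and Rars is lower in every Irf1-/- library.

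Sars, the seryl-tRNA synthetase (chromosome 3, 108424865 to 108445209, - strand), had the largest difference of the set. Its normalized counts were 2950.2, 3009 and 3969.7 in WT and 4782, 4687.5 and 5134 in Irf1-/- cultures. WT replicate 3 was well above the other WT libraries and still below all Irf1-/- libraries. The log2 fold change was 0.57 (SE 0.099, adjusted p = 0.00257, limma), an increase of the mean by 47.1%.

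Cars, which charges tRNA with cysteine (chromosome 7, 143557230 to 143600090, - strand), came next. It had 1411.5, 1408 and 1745 normalized counts in WT and 2246, 2170.4 and 2122 in Irf1-/- cultures. The groups were separate, and the spread among the Irf1-/- cultures was small beside the difference. The log2 fold change was 0.53 (SE 0.080, adjusted p = 0.00126, limma), and Cars was the member whose call was kept under all 19 alternatives.

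Nars and Gars, for asparagine and glycine, were among the more abundant members. Nars had 4594, 4499 and 5624 normalized counts in WT and 6489, 6250.5 and 6861 in Irf1-/- cultures, for a log2 fold change of 0.42 (adjusted p = 0.00449, limma). Gars had 4545, 4197 and 5496 in WT and 6259.9, 5963 and 6301 in Irf1-/- cultures, for a log2 fold change of 0.39 (adjusted p = 0.00855, limma). In both genes WT replicate 3 lay nearest to the Irf1-/- libraries and no values overlapped.

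Lars, the leucyl-tRNA synthetase, which also reports leucine supply to mTORC1, had 2572, 2532 and 3327 normalized counts in WT and 3619, 3371 and 3871 in Irf1-/- cultures. Its log2 fold change was 0.37 (SE 0.097, adjusted p = 0.0185, limma), but WT replicate 3 and Irf1-/- replicate 2 nearly met. The adjusted p of Lars was 0.0822 without WT replicate 1, 0.0876 without WT replicate 2 and 0.0603 without Irf1-/- replicate 1.

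Tars, for threonine, had 2532, 2425 and 2944 normalized counts in WT and 3331, 3231 and 3214.5 in Irf1-/- cultures, a log2 fold change of 0.31 (adjusted p = 0.00942, limma). Aars, for alanine, had 3801, 3708 and 4266 in WT and 4751, 4769 and 4806.5 in Irf1-/- cultures, a log2 fold change of 0.29 (adjusted p = 0.00627, limma). Both were tightly grouped in the Irf1-/- cultures and spread over the WT cultures. Without WT replicate 2 the adjusted p of Tars was 0.0504.

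Yars, Qars and Vars, for tyrosine, glutamine and valine, showed the smallest increases that passed the test. Yars had 2004, 2118 and 2493 normalized counts in WT and 2639.8, 2618 and 2599 in Irf1-/- cultures (log2 fold change 0.25, adjusted p = 0.0313, limma). Qars had 1795, 1784 and 1874 in WT and 2129, 2077.5 and 2161 in Irf1-/- cultures (log2 fold change 0.22, adjusted p = 0.00955, limma). Vars had 5589.7, 5286 and 6057 in WT and 6556, 6293.5 and 6842 in Irf1-/- cultures (log2 fold change 0.22, adjusted p = 0.0243, limma). None of these overlapped, and the mean changed by 16.3% for Vars to 18.8% for Yars. Some of these calls were lost when 1 library was left out. Yars had an adjusted p of 0.132 without WT replicate 1, 0.118 without WT replicate 2, 0.0948 without Irf1-/- replicate 1 and 0.0883 without Irf1-/- replicate 2. Vars had 0.0894, 0.117 and 0.0742 without WT replicate 1, WT replicate 2 and Irf1-/- replicate 1, and Qars had 0.0509 without WT replicate 2.

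**Figure D3:**
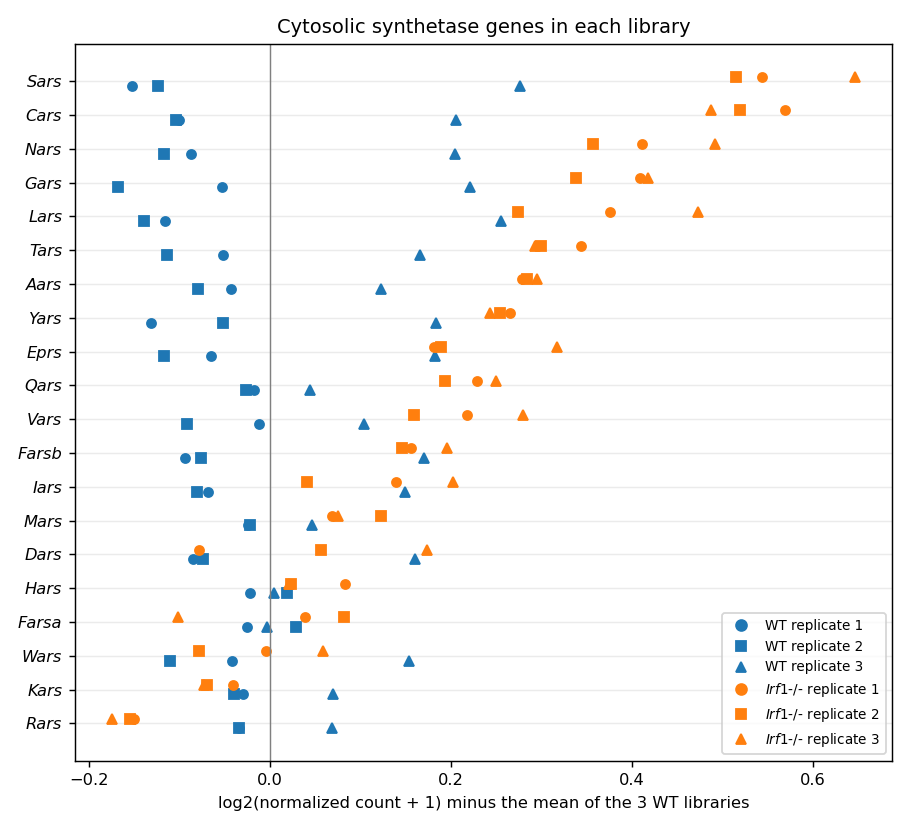
Log2 of the normalized count plus 1 minus the mean of the 3 WT libraries (x axis) for each of the 20 cytosolic genes, with WT libraries in blue, Irf1-/- libraries in orange and the shape for the replicate number. The blue triangle of WT replicate 3 is the right-most WT symbol in 18 of the 20 genes and lies between WT replicates 1 and 2 and the Irf1-/- libraries in the genes at the top.

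In the 10 cytosolic genes called higher, WT replicate 3, the single WT library with Xist, stood closer to the Irf1-/- libraries than the other WT libraries did. It had the highest WT value in 10 of the 11 members called higher and in 18 of the 20 cytosolic genes, and in 41.6% of all genes tested. For Rars and Kars, whose Irf1-/- values were below all WT values, the highest WT value was the farthest from them. Against WT replicate 3 alone, the 3 Irf1-/- libraries were above it in all 11 members called higher, but the log2 fold changes were smaller. They were 0.32 for Cars, 0.29 for Sars, 0.28 for Vars2, 0.22 for Nars, 0.18 for Qars, 0.17 for Gars, 0.16 for Aars, 0.15 for Tars, 0.12 for Lars, 0.115 for Vars and 0.07 for Yars. In that fit the WT arm has 1 library and no spread of its own, and it is assumed to vary like the Irf1-/- libraries. Under that assumption Cars alone had an adjusted p below 0.05 (0.0461, limma), and 3.44% of all genes were called higher. With the level of Ddx3y as a covariate in all 6 libraries, 5 of the 11 remained called, with 7.70% of all genes called higher. These were Cars (log2 fold change 0.35), Sars (0.33), Nars (0.24), Gars (0.19) and Aars (0.18). Ddx3y was high in WT replicates 1 and 2 alone, so that in this fit the genotype difference rests mostly on WT replicate 3. The covariate is therefore not a check apart from the fit against WT replicate 3, here or elsewhere in the text. Donor sex, library size and culture cannot be told apart for WT replicate 3, and the part of each in the smaller differences was not tested. Without WT replicate 2, 5 members were called higher, and without WT replicate 1 or without Irf1-/- replicate 1, 8 were.

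Rars, the arginyl-tRNA synthetase, was the cytosolic gene called lower in Irf1-/- cells. It lies on chromosome 11 (35808381 to 35834506, - strand), 17.9 Mb from Irf1. Its normalized counts were 1999, 2000.5 and 2148 in WT and 1846, 1839 and 1814 in Irf1-/- cultures. The groups did not overlap, and the log2 fold change was -0.16 (SE 0.052, adjusted p = 0.0473, limma). The call was near the threshold and was kept under 6 of 19 alternatives, and leaving out any single library gave an adjusted p between 0.0750 and 0.111. Against WT replicate 3 the log2 fold change of Rars was -0.23 (adjusted p = 0.124, limma), and with the Ddx3y covariate it was -0.22 (adjusted p = 0.0307, limma).

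The remaining cytosolic genes did not pass the test. Eprs, the enzyme that charges both glutamate and proline tRNAs, had 5367.5, 5179 and 6377 normalized counts in WT and 6367, 6406 and 7001 in Irf1-/- cultures, for a log2 fold change of 0.23 (adjusted p = 0.0535, limma). Farsb and Farsa encode the paired subunits of the phenylalanyl-tRNA synthetase, and their log2 fold changes were 0.17 and 0.01. In Eprs, Farsb and Iars, the isoleucine enzyme (log2 fold change 0.13), WT replicate 3 overlapped the Irf1-/- values. Without it these genes had an adjusted p of 0.00122, 0.00632 and 0.0213 (limma), but there genotype and donor sex coincide. With WT replicate 3 as the single WT library their log2 fold changes were 0.05, -0.005 and -0.02 (adjusted p 0.796, 0.982 and 0.922, limma), and with the Ddx3y covariate 0.07, 0.02 and -0.01. Mars (0.09), Hars (0.04) and Kars (-0.06), for methionine, histidine and lysine, had values that did not overlap between genotypes but differed too little to pass. Dars, for aspartate, had a log2 fold change of 0.05 with overlapping values. Exons of Mars overlap those of Ddit3 on the other strand, and those of Hars overlap Hars2 in the same way. The sources used here do not say whether counting used strand, so that shared reads of these pairs are uncertain. The same holds for Cars, Yars, Aars and Vars2, whose exons overlap those of Gm15580, C77080, Gm24103 and Gm20483. Among members that did not pass, it also holds for Farsb, which overlaps Sgpp2, and for Cars2, Ears2, Fars2, Iars2 and Nars2. Aars also overlaps an unnamed gene on its own strand, and strand would not separate their reads.

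The genes inside and outside the multi-synthetase complex are described side by side, with no test between them. Of its 8 synthetase genes, Lars and Qars were higher, Rars was lower and 5 did not pass, and the median log2 fold change was 0.11. Of the 12 cytosolic genes outside it, 8 were higher and 4 did not pass, with a median of 0.27 and a range from -0.01 to 0.57. The scaffold gene Aimp2 had 453, 489 and 481 normalized counts in WT and 415.5, 379 and 376 in Irf1-/- cultures, a log2 fold change of -0.28 (adjusted p = 0.0191, limma). The adjusted p of Aimp2 was 0.0804 without WT replicate 2 and 0.0679 without Irf1-/- replicate 2. Of 15 scaffold and tRNA-charging partner genes, the other called gene was Pstk, a kinase in selenocysteine-tRNA synthesis, for a log2 fold change of 0.42 (adjusted p = 0.0235, limma). Thus 1 of the 15 was higher and 1 lower, beside 11.4% and 12.4% of all genes tested. The call of Pstk was lost without WT replicate 2 or 3 or without Irf1-/- replicate 1 or 2, with adjusted p between 0.0561 and 0.0943.

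Among the 16 mitochondrial synthetase genes, the difference between genotypes passed the test for Vars2 alone, which charges mitochondrial valine tRNA (chromosome 17, 35655634 to 35667592, - strand). Vars2 had 392, 364 and 384 normalized counts in WT and 467, 458 and 474 in Irf1-/- cultures, a log2 fold change of 0.29 (SE 0.069, adjusted p = 0.0116, limma). All Irf1-/- values were above all WT values, and the difference from WT replicate 3 was 0.28 on the log2 scale (adjusted p = 0.161, limma). The adjusted p of Vars2 was 0.0558 without WT replicate 2 and 0.0630 with the Ddx3y covariate.

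Yars2 had the lowest log2 fold change of the whole set, -0.23, and did not pass the test (adjusted p = 0.0952, limma). Its normalized counts were 407, 368 and 345 in WT and 329.5, 334 and 293 in Irf1-/- cultures, which did not overlap. Wars2, the mitochondrial counterpart of Wars, had 131, 111 and 108 in WT and 95.5, 112 and 95.2 in Irf1-/- cultures, with a log2 fold change of -0.20 (SE 0.13, adjusted p = 0.306, limma). Wars2 was the least abundant member per length, and its genotypes overlapped.

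Lars2, the mitochondrial leucine enzyme, had a value that turned on a single library. It had 786, 885 and 982 normalized counts in WT and 753, 684 and 1797 in Irf1-/- cultures. Irf1-/- replicate 3 stood far above every other library, and the log2 fold change of 0.15 had a standard error of 0.28 (adjusted p = 0.752, limma). Without Irf1-/- replicate 3 it was -0.30 (adjusted p = 0.0373, limma), and in the 4 smaller libraries it was -0.22 (adjusted p = 0.0108, limma). Both WT libraries among those 4 hold a Y chromosome, so genotype and donor sex cannot be told apart there. The other 12 uncalled mitochondrial genes had log2 fold changes between -0.14 and 0.08, all with overlapping values.

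Summed over the set, cytosolic synthetase transcripts took 0.717, 0.706 and 0.806% of the reads on genes in WT and 0.892, 0.878 and 0.910% in Irf1-/- libraries. The mitochondrial transcripts took 0.0839, 0.0851 and 0.0833% in WT and 0.0838, 0.0834 and 0.0955% in Irf1-/- libraries. The cytosolic shares did not overlap between genotypes, while the mitochondrial shares did. Irf1-/- replicate 3, which had the highest mitochondrial share, was also the library with the high Lars2 value.

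Levels between genes were compared as the mean normalized count per kilobase of the principal transcript in WT cells. Gars (1994), Kars (1964), Nars (1787), Vars (1364) and Eprs (1149.8) led the cytosolic genes. Gars and Kars each encode both the cytosolic and the mitochondrial enzyme, and no separate mitochondrial gene of either is in the list. Wars had 818 per kilobase, and Cars, one of the most changed genes, had the lowest cytosolic level at 472. The mitochondrial genes ranged from 26.4 for Wars2 to 377 for Tars2, below every cytosolic gene. Of the genes with the largest fold changes, Gars and Nars were thus near the top and Cars at the bottom of the cytosolic levels.

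The RefSeq promoter windows (GRCm38.p6, 250 bases before to 50 after the start) were searched on both strands for motifs. Reported here are TGATGNAA, the C/EBP-ATF response element bound by ATF4, AANNGAAA, the core of the ISRE bound by IRF proteins, and GAAANNGAA, a tandem of 2 GAA sites. Windows were found for 27 of the 36 members, and there was none for Cars, Hars, Lars, Nars, Rars, Vars, Wars, Hars2 and Pars2. The C/EBP-ATF element was present in 5 of 13 cytosolic windows, in none of 14 mitochondrial windows and in 4.51% of the 27025 genes with a window. Among members with a window it was present in 4 of the 7 called higher and in 1 of the 20 others. Those 4 were Aars, Gars, Tars and Yars, and the other was Iars, whose level did not pass the test. Most of the 20 were mitochondrial genes, a class without the element, so this contrast largely restates that between the classes. In the 250 bases before the start alone, the element was in 3 of the 7 (Aars, Gars and Tars) and in 0 of the 20.

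A match to the C/EBP-ATF element in each of these 5 genes is shown because 4 of them were called higher, while Iars did not pass. The sequences are given 5′ to 3′ on the strand of the gene with the matched bases in capitals, from RefSeq GRCm38.p6.
Aars, chr8:111033841-111033868, + strand, bases 10 to 17 from the start: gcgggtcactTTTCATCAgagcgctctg
Gars, chr6:55037961-55037988, + strand, bases -30 to -23: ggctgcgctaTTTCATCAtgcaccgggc
Tars, chr15:11399656-11399683, - strand, bases -15 to -8: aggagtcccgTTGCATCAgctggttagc
Yars, chr4:129189896-129189923, + strand, bases 4 to 11: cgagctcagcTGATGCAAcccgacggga
Iars, chr13:49682127-49682154, + strand, bases 8 to 15: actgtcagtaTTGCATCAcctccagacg
In the GENCODE annotation the Gars and Tars matches lie outside any gene, the Aars and Iars matches shown lie in untranslated exon sequence of these genes, and that of Yars in exon sequence that is untranslated or coding by transcript.

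The ISRE core was in 5 of 27 member windows (18.5%) and in 26.7% of genes, and the members were Sars, Qars, Farsa, Lars2 and Tars2. Among the 7 called higher with a window it was in 2 (28.6%). The tandem of GAA sites was in Qars alone, where it overlaps the ISRE core, and in 9.76% of genes. The ISRE cores of the 2 called genes are shown in the same manner.
Sars, ISRE core, chr3:108445296-108445323, - strand, bases -54 to -47: accacgccctTTTCACTTctcaccactc
Qars, ISRE core, chr9:108507796-108507823, + strand, bases -199 to -192: tgctaaacacTTTCCCTTtccacgccca
The Sars match lies outside any annotated gene and the Qars match lies in an untranslated exon of Qars. A match is a run of letters in these windows and not evidence of binding.

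The wider set of amino acid response genes, targets or partners of ATF4, was also mostly higher in Irf1-/- cells. Of 32 genes tested, 24 were higher, 1 was lower and 7 did not pass, with a median log2 fold change of 0.46. Trib3, a pseudokinase induced by ATF4, had 269.6, 254 and 394 normalized counts in WT and 760.5, 760.0 and 763 in Irf1-/- cultures, a log2 fold change of 1.34 (adjusted p = 0.000104, limma). The other genes with the largest changes were Nupr1 (1.59), Vldlr (1.24), Stc2 (1.20), Cth (1.20), an enzyme of cysteine synthesis, and Pycr1 (1.10), an enzyme of proline synthesis. WT replicate 3 was again the highest WT library in these 6 genes. With the Ddx3y covariate the median was 0.31 and 16 genes were called higher, beside 7.70% of all genes tested. Against WT replicate 3 alone, with the same assumption on its spread, the median was 0.28 and 11 were called, and Pycr1 had a log2 fold change of 0.48 (adjusted p = 0.0915, limma). Atf3, named outside the naming rule with its value known, was the called gene in the other direction, with a log2 fold change of -0.51, and its adjusted p was 0.0940 without Irf1-/- replicate 1 and 0.0984 without Irf1-/- replicate 2. Its difference was larger against WT replicate 3 (-0.91, adjusted p = 0.00230) and with the Ddx3y covariate (-0.85, adjusted p = 9.5e-05, limma). Atf4 itself, named in the same way, had a log2 fold change of 0.26 (adjusted p = 0.0261, limma), which was 0.08 against WT replicate 3 and lost the call without WT replicate 1 or 2 or without Irf1-/- replicate 1 or 2, with adjusted p between 0.0653 and 0.1165. The median of this list was larger than that of the cytosolic synthetases, a comparison of values with no test.

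**Figure D4:**
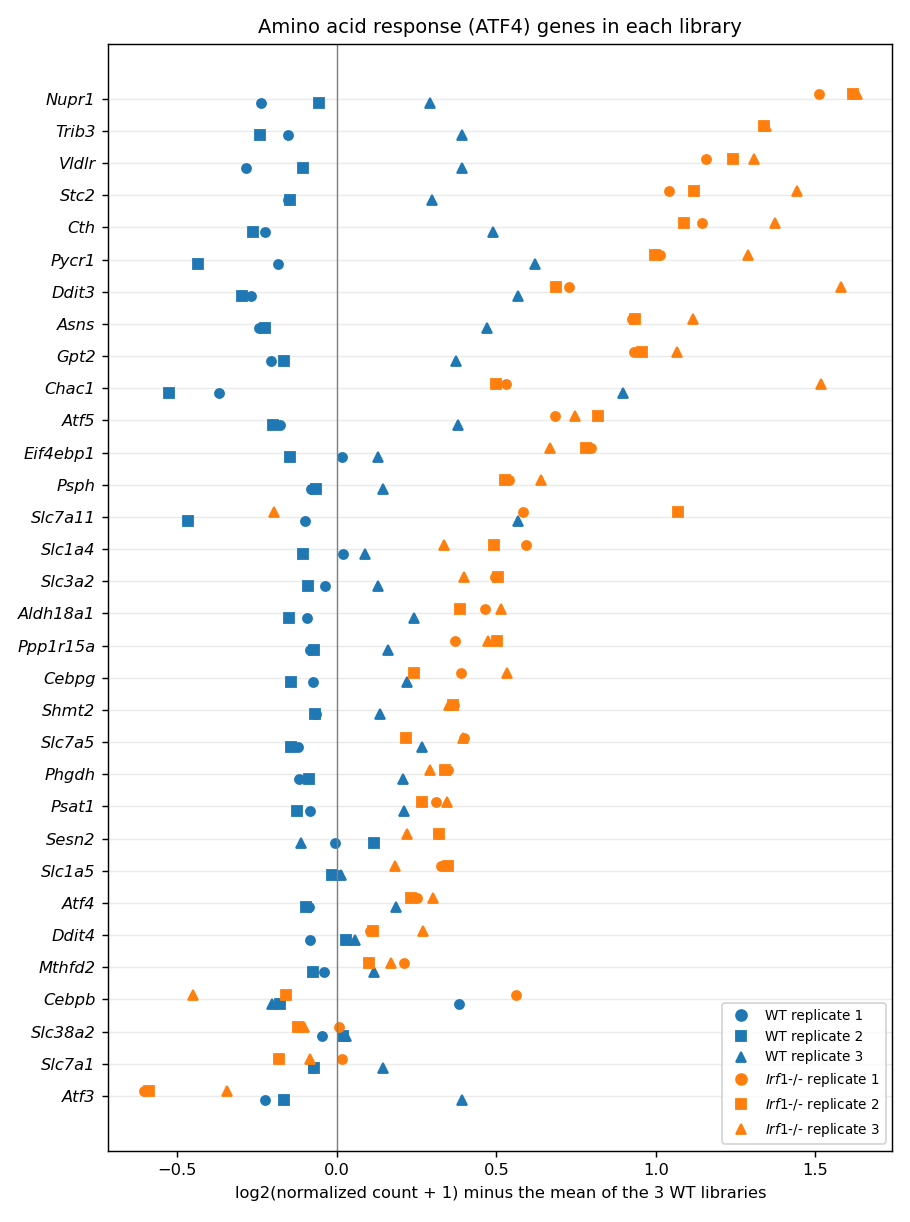
Log2 of the normalized count plus 1 minus the mean of the 3 WT libraries (x axis) for the 32 amino acid response genes, with WT libraries in blue, Irf1-/- libraries in orange and the shape for the replicate number. From Nupr1 at the top down, most orange symbols lie to the right of all blue symbols, and the blue triangle of WT replicate 3 is usually the right-most WT symbol. Atf3 at the bottom lies to the left.

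Among 8 genes for eIF2α, its kinases, a kinase activator and phosphatase subunits, upstream of ATF4, 6 did not pass. Of the 8, 1 was higher and 1 lower, beside 11.4% and 12.4% of all genes tested. Ppp1r15a, the inducible eIF2α phosphatase subunit, which is also in the ATF4 list, was higher (log2 fold change 0.45, adjusted p = 0.00861, limma), but its value was 0.33 with the Ddx3y covariate (adjusted p = 0.0841) and 0.29 against WT replicate 3 (adjusted p = 0.239). Eif2ak1, the heme-regulated kinase, was lower (log2 fold change -0.23, adjusted p = 0.0376, limma), and its call was lost without WT replicate 1 or 2 or without Irf1-/- replicate 1 or 2, with adjusted p between 0.101 and 0.131.

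Genes that break down tryptophan, the amino acid of Wars, were examined next, in 1 list with genes of the aryl hydrocarbon receptor. Ido1, Ido2 and Tdo2, the enzymes that open the tryptophan ring, had 0 reads in all 6 libraries. Of the 12 genes of both kinds, 7 were tested and 2 were called, both lower in Irf1-/- cells. Of all genes tested, 12.4% were called lower. Kynu, the kynureninase gene, had 312, 317 and 324 normalized counts in WT and 254, 233 and 211 in Irf1-/- cultures, a log2 fold change of -0.45 (adjusted p = 0.00544, limma). Cyp1a1, a target of the aryl hydrocarbon receptor, gave a log2 fold change of -1.72 (adjusted p = 0.0181, limma), but WT replicate 3 had 13.5 against 38.7 and 42.1 in the other WT libraries. The adjusted p of Cyp1a1 was 0.0826 without WT replicate 1 and 0.0910 without WT replicate 2. Its log2 fold change was -0.72 against WT replicate 3 (adjusted p = 0.517) and -0.79 with the Ddx3y covariate (adjusted p = 0.211, limma).

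Other parts of the translation machinery gave the following counts, beside 11.4% of all genes tested called higher and 12.4% called lower. Of 7 genes for cytosolic elongation factors and for the eEF2 kinase (Eef2k), 3 were higher. They were Eef1a1, which delivers charged tRNA to the ribosome (log2 fold change 0.37, adjusted p = 0.00556, limma), Eef1b2 (0.21) and Eef2k (0.52). The calls of Eef1b2 and Eef2k were lost without WT replicate 1 or 2, with adjusted p between 0.0574 and 0.0782, and that of Eef2k also without Irf1-/- replicate 1 or 2. Against WT replicate 3 the values were 0.22 for Eef1a1, 0.18 for Eef1b2 and 0.27 for Eef2k, and with the Ddx3y covariate Eef2k was at 0.32 (adjusted p = 0.154, limma). Of 10 mitochondrial translation factor genes, Gfm1, an elongation factor of mitochondria, was the called gene and was lower (log2 fold change -0.28, adjusted p = 0.00546, limma). Of 15 Myc-related and nucleolar growth genes tested, 7 were lower and 8 did not pass, with a median log2 fold change of -0.15. The 6 with the largest changes were Max (-0.52), Polr1a (-0.33), Nolc1 (-0.29), Ncl (-0.27), Wdr12 (-0.26) and Polr1b (-0.23), each higher in all 3 WT than in all 3 Irf1-/- libraries. Myc itself, named outside the naming rule with its value known, had a log2 fold change of 0.02 (adjusted p = 0.932, limma). With the Ddx3y covariate Myc was at -0.30 (adjusted p = 0.0371, limma). The calls of Wdr12 without WT replicate 1 and of Polr1b without WT replicate 1 or 2 were lost, with adjusted p between 0.0547 and 0.0649. Against WT replicate 3, with the assumption on its spread as before, the adjusted p of Aimp2, Pstk, Ppp1r15a, Eif2ak1, Kynu, Cyp1a1, Eef1a1, Eef1b2, Eef2k and Gfm1 lay between 0.0824 and 0.517, and 3 of the nucleolar growth genes were called lower. With the Ddx3y covariate Ppp1r15a, Eif2ak1, Cyp1a1 and Eef2k of these, and Wdr12 and Polr1b, lost their calls, with adjusted p between 0.0577 and 0.211 (limma).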

How the data were processed

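Poly(A) RNA of 3 WT and 3 Irf1-/- Th9 cultures had been sequenced as single-end reads. Per the labels and the methods, alignment to GRCm38 was by STAR 2.4.0b, counting per Ensembl gene by featureCounts, and testing by DESeq2 1.12.3. The authors deposited normalized counts (unit: signal), that is, read numbers after division by the library's size factor. Multiplying back gave whole reads in 100% of non-zero entries within a tolerance of 0.01, from 5639788 to 13348230 a library.

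Here log2(normalized count + 1) was tested in R 4.3.3 with limma 3.58.1 (eBayes, trended prior). Genes averaging 10 or more were kept, 11379 in all, and p-values were Benjamini-Hochberg adjusted with a threshold of 0.05. Fold changes of low genes are understated on this scale. The table held no raw counts, so the recovered reads were tested by edgeR 4.0.16 and by DESeq2 1.42.0 as alternatives. The others were pseudocounts of 0.1 and 10, no filter, a mean of at least 50, TMM factors, quantile normalization, no trend, a replicate block, each library left out, the Y-linked level as a covariate, and the 4 libraries with Xist or the 4 smaller ones alone. The scripts were tested on simulated data.

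The members, the gene lists and the alternatives were chosen with earlier results of these data known. The naming rule took all members, Irf1, and from each list the called genes with the largest change, at most 6, plus genes at 0 where that level is the point. Markers, Ddx3y and Xist are named as checks. Lists of scaffolds and partners, amino acid response, eIF2 and its kinases, tryptophan breakdown with the aryl hydrocarbon receptor and elongation factors were written from general knowledge. So were those of mitochondrial translation factors, nucleolar growth genes and cell type markers. Positions and lengths came from GENCODE for GRCm38 and promoters from RefSeq. CD8 T cell markers summed to 32.5 to 41.2 in WT and 20.3 to 30.7 in Irf1-/- libraries. A few searched sequence matches are not reported here.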

Additional observations from a re-analysis of the deposited data

How the results depend on the processing

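Wars stayed above an adjusted p of 0.05 under all 19 alternatives, and its log2 fold change, near 0, turned positive with TMM factors (0.0025), with quantile normalization (0.063) and in the 4 smaller libraries (0.035). It was lowest with only the Xist libraries (-0.16) and with the Y-linked covariate (-0.15). Leaving out each library in turn gave Wars values from -0.064 to 0.068. The count of 11 members called higher became 4 without a trend, 5 with the Y-linked covariate and 1 with only the 4 libraries with Xist, and 5 to 14 when each library was left out, lowest without WT replicate 2. The 1 member called lower, Rars, became 0 with no filter, TMM factors, quantile normalization, no trend, DESeq2 or only the 4 libraries with Xist. Leaving out a library gave 0 to 1 called lower, the 1 being Lars2 without Irf1-/- replicate 3, and in the 4 smaller libraries the 1 was again Lars2 and not Rars. Of the 24 uncalled members, 18 took both signs over the alternatives, 6 cytosolic and 12 mitochondrial, and of the 12 called members 0 did. Among uncalled genes given with values, the sign turned for Kars with quantile normalization (0.0062), for Farsb with only the Xist libraries (-0.0048), and for Iars, Dars and Lars2 with the Y-linked covariate (-0.014, -0.081 and -0.086) and with only the Xist libraries (-0.021, -0.11 and -0.011). Lars2 was also at -0.22 in the 4 smaller libraries. Without each library in turn, Dars ranged from -0.011 to 0.13, Lars2 from -0.30 to 0.40 and Farsa from -0.032 to 0.060, and Farsa was at -0.099 in the pair of larger libraries. Among all genes, the calls numbered 2699 in the reported fit, 1735 without a trend, 4009 with the replicate block, 784 with only the Xist libraries and 3895 in the 4 smaller ones, and 1625 to 2802 when each library was left out. Where WT replicate 3 was left out, and in the 4 smaller libraries, genotype and donor sex coincided. The cause of these changes was not tested.

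Replicate numbers were shared by the genotypes in the labels, but the samples share only a number. Deviations of same-numbered libraries from their group means correlated at 0.0922, 0.269 and 0.321 for replicates 1, 2 and 3, and every library correlated best with its own number, a hint from the data and not from the design. With the replicate block, 14 members were called higher and 2 lower, and the log2 fold change of Wars was -0.0086.

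Standard errors on the log2 scale were 0.082 for Dars and 0.050 for Hars and for Kars, beside a median of 0.0998 over all genes, and differences of the size seen in these 3 genes did not pass at that precision.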
